A study of Sus scrofa with 4 samples.

Results

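The cytosolic ribosomal protein genes were followed here between LGR5-reporter-bright and reporter-negative lung cells of the pig. Members were the genes whose name in the count tables has the form of a large-subunit (RPL), small-subunit (RPS) or stalk (RPLP) protein followed by its number, with at most the letter A, X or L after it. This rule found 48 of the 29263 genes, 24 of the large subunit, 22 of the small subunit and 2 of the stalk, and it used names only, no measured value. Of these, 47 passed the filter on low counts and 46 had a mean of at least 10 CPM (counts scaled to a common library total). Another 8 ribosomal protein genes are filed under an Ensembl identifier and were named through a gene name table. They were kept apart from the 48 and are described after them.

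All 4 libraries came from lung of pigs with the LGR5-H2B-GFP knock-in, in which green fluorescent protein fused to a histone marks cells that transcribe LGR5, a receptor of the Wnt pathway. Lung was digested with dispase, DNase and collagenase, dead cells were removed with propidium iodide, and cells were sorted by fluorescence into a bright group (GFP-HI, 2 biological replicates) and a group without signal (GFP-NEG, 2 biological replicates). The protocol covers adult and fetal animals together, and only the name of the authors' comparison table speaks of adult pig. The knock-in is shared by both groups, no library from an animal without it is analysed here, and the histone fusion can outlast transcription of the gene in a cell and its daughters.

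Ribosomal proteins are the protein components of the small and the large ribosomal subunit, and a ribosome needs most of them in equal number. Their mRNAs are among the most abundant of any growing cell. They begin with an oligopyrimidine stretch through which the kinase complex mTORC1 and the protein LARP1 set their translation, and MYC raises their transcription. The summed level of these mRNAs differs between cell types, and it is often high in lymphocytes.

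The GFP-HI libraries held 24200550 and 24689986 counts, the GFP-NEG libraries 6292253 and 7045652. LGR5 had 3218 and 3073 counts in the GFP-HI libraries against 10 and 7 in the GFP-NEG libraries, which matches the labels of the sort. Summed over 9 fibroblast markers, GFP-HI was at 81823 and 71694 CPM, against 25366 and 9032 CPM in GFP-NEG. Summed over 12 lymphocyte markers, all with counts, GFP-HI was at 158 and 337 CPM, against 1050.2 and 1911 CPM in GFP-NEG. Neutrophil markers (185 and 167 against 1908 and 797 CPM) and endothelial markers (205 and 203 against 1329 and 569 CPM) were also lower in GFP-HI, so both groups held cells of several types. The part of these cell types in the results on ribosomal protein genes was not tested. The smallest count of any of the 46 well-measured ribosomal protein genes was 474, so counting error was small beside the spread between replicates.

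Ribosomal protein transcripts took a larger part of the library in GFP-HI than in GFP-NEG within each replicate, but the groups overlapped. The 48 genes made up 2.73% and 4.39% of all counts in replicates 1 and 2 of GFP-HI, against 1.98% and 3.47% in GFP-NEG. GFP-HI was thus at 3.56% ± 1.17 (SD, n = 2) and GFP-NEG at 2.73% ± 1.06 (SD, n = 2), a difference of 0.835 percentage points that is smaller than either SD. Replicate 2 was the higher library in both groups, and GFP-NEG replicate 2 lay above GFP-HI replicate 1. Within a replicate the GFP-HI share was 1.38 times (replicate 1) and 1.26 times (replicate 2) the GFP-NEG share. No test was made on this share, since the smallest 2-sided p of an exact permutation test with 2 libraries against 2 is 0.333. In bulk libraries such as these, more cells of a type with many ribosomes and more ribosomal protein mRNA per cell cannot be told apart.

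**Figure D1:**
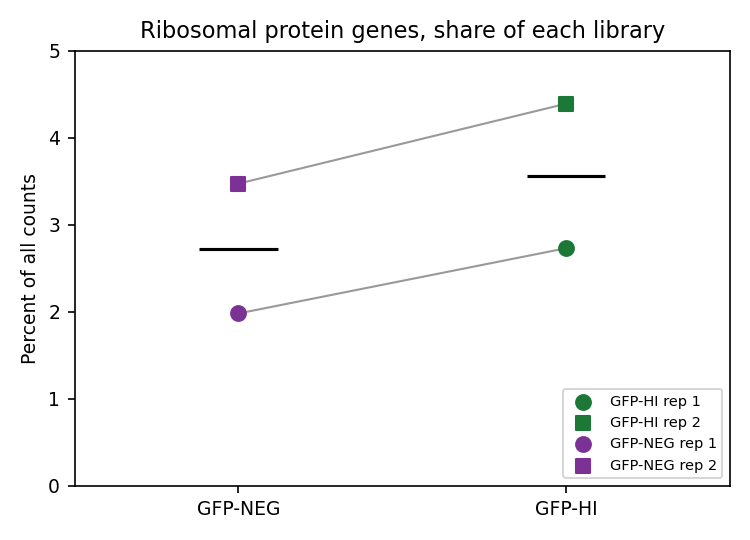
Share of all counts, in percent, taken by the 48 ribosomal protein genes in each of the 4 libraries. Grey lines join the libraries with the same replicate number and black bars are group means; both lines climb from GFP-NEG to GFP-HI, and GFP-NEG replicate 2 (3.47%) sits above GFP-HI replicate 1 (2.73%).

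Gene by gene, the values below are CPM after TMM scaling, which corrects for libraries dominated by different sets of genes; "unscaled CPM" means counts divided by the library total alone. The choice matters here, because TMM lowered the level of GFP-NEG replicate 2 relative to the others. Fold changes and p-values come from edgeR's quasi-likelihood test over all 19682 tested genes, with an adjusted p-value under 0.05 as the threshold.

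Of the 47 tested ribosomal protein genes, 45 had a positive log2 fold change (GFP-HI over GFP-NEG), but 0 passed the threshold in either direction. A positive value was found for 8713 of the 19682 tested genes. It was found for 901 of 1320 other genes in the CPM range of the well-measured members. Among all tested genes 8.35% were called higher and 27.6% lower in GFP-HI by the same edgeR test, and among the 1320 other genes in the same CPM range as the well-measured members these shares were 17.9% and 12.6%. At an unadjusted p under 0.05 the count of members was also 0, and the smallest adjusted p was 0.117. DESeq2 on the same counts called 3 of the 47 higher (RPS28, RPS29 and RPL24) and 0 lower, against a background of 6.91% of all genes called higher and 26.7% called lower, and of 19.6% called higher among the genes in the members' CPM range. The p-values rest on the spread between these 4 libraries. In edgeR that spread was pooled over genes, so a member's own scatter carried little weight. The authors' deposited table calls 5 of the 47 higher and 0 lower, adding RPL34 and RPS20 to those 3. That table calls 8.2% of its 16250 genes higher and 11.2% lower.

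The median log2 fold change of the 47 genes was 0.85, with a middle range from 0.74 to 1.05, beside a median of -0.25 over all tested genes. That of the other genes in the same CPM range was 0.52. The members' median was 1.10 above that of all genes and 0.33 above that of the genes in their CPM range. With library size alone the members' median was 0.37, that of all genes -0.68 and that of the CPM range 0.09, so the gaps were 1.05 and 0.28. The gap to the genes in the same CPM range depended on single libraries. Leaving out GFP-NEG replicate 1 gave -0.06 and leaving out GFP-HI replicate 2 gave 0.10. Without GFP-HI replicate 1 the gap was 0.61, and omitting GFP-NEG replicate 2 made it 0.76. The standard errors of the 46 well-measured genes ran from 0.58 to 1.00 on the log2 scale, and the 95% interval of each of the 46 held both 0 and 1.

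Large-subunit, small-subunit and stalk genes lay at similar values. The median log2 fold change was 0.89 for the 23 tested large-subunit genes, 0.86 for the 22 small-subunit genes and 0.63 for the 2 stalk genes. All 22 small-subunit genes were positive, and the 2 negative genes, RPL8 and RPL3L, belong to the large subunit. With TMM scaling, 35 of the 47 genes had both GFP-HI libraries above both GFP-NEG libraries, where 27.7% of all tested genes did, and 0 were apart in the other direction, where 42% of all genes were. On unscaled CPM, 8 of the 47 had GFP-HI wholly higher, where 16.5% of all genes did, and RPL8 was the 1 gene wholly lower, where 49% of all genes were. Of the 1320 other genes in the members' CPM range, 636 were wholly higher and 274 wholly lower with TMM scaling. On unscaled CPM these counts were 421 and 376. The 8 members wholly higher on unscaled CPM were thus near the share of all genes and below that of their CPM range. For most members, whether the groups overlapped thus depended on the scaling.

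**Figure D2:**
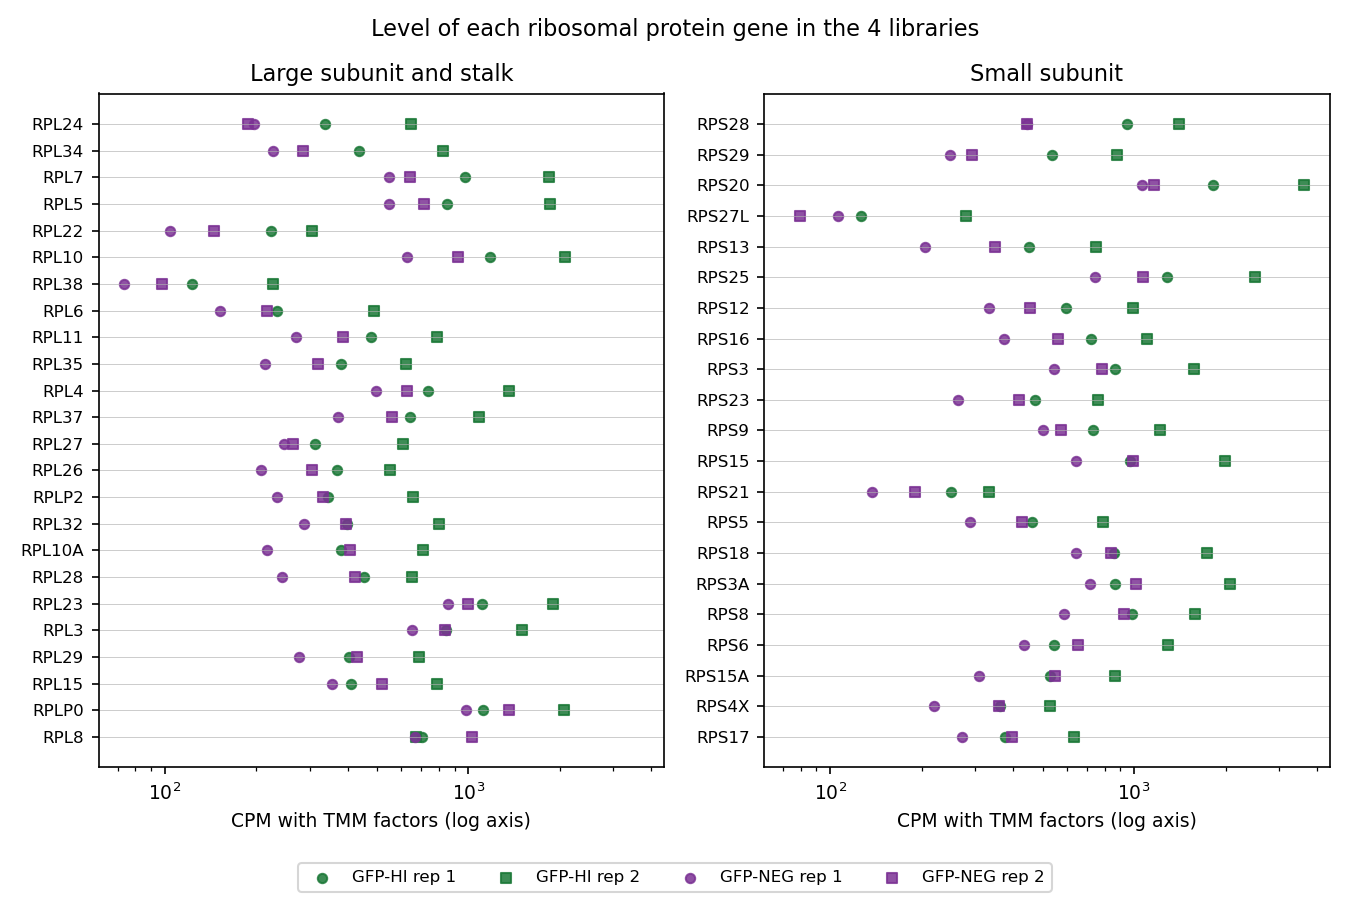
Level of 45 of the 46 ribosomal protein genes with a mean of at least 10 CPM in each library, in CPM with TMM factors on a log axis, sorted by log2 fold change from the lowest at the bottom. Green marks are GFP-HI and purple marks GFP-NEG, circles replicate 1 and squares replicate 2; GFP-HI replicate 2 is the rightmost library for every gene drawn except RPL8. Levels should not be compared between genes, since transcript length is not corrected for.

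Nearly all members also differed between replicates in the same direction. In GFP-HI, replicate 2 was higher than replicate 1 for 46 of the 47 tested genes, with a median log2 difference of 0.83, and RPL8 was the exception. In GFP-NEG, replicate 2 was higher for 45 of 47, with a median of 0.52, and RPL24 and RPS27L were the exceptions. Over all 19682 tested genes, replicate 2 was higher for 8645 in GFP-HI and for 10863 in GFP-NEG. Among the 1320 other genes in the members' CPM range it was higher for 742 and 342, with median log2 differences of 0.17 and -0.39. The median group difference was 0.72 within replicate 1 and 1.00 within replicate 2 on this scale. On unscaled CPM, replicate 2 was at a median of 1.59 times replicate 1 in GFP-HI and 1.81 times in GFP-NEG, while GFP-HI was at 1.48 times (replicate 1) and 1.27 times (replicate 2) GFP-NEG. The replicate differences were thus the larger ones throughout on the unscaled values. With TMM scaling the replicate difference in GFP-HI (0.83) was also larger than the group difference within replicate 1 (0.72), but smaller than that within replicate 2. The members were higher in GFP-HI in both replicates for 45 of 47 genes with TMM scaling, beside 33.4% of all tested genes, and for 40 of 47 on unscaled CPM, beside 22.6%. Among the 1320 other genes in the members' CPM range, 741 were higher in both replicates with TMM scaling and 565 on unscaled CPM. The 6 well-measured genes that were not higher in replicate 2 on unscaled CPM were RPL8, RPL15, RPL28, RPLP0, RPS4X and RPS15A. The lymphocyte marker sum was also higher in replicate 2 in both groups, as was that of the 13 mitochondrially encoded genes (7765 and 15839 CPM in the GFP-HI libraries, 11177 and 16754 CPM in GFP-NEG). Their part in the difference between replicates was not tested.

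**Figure D3:**
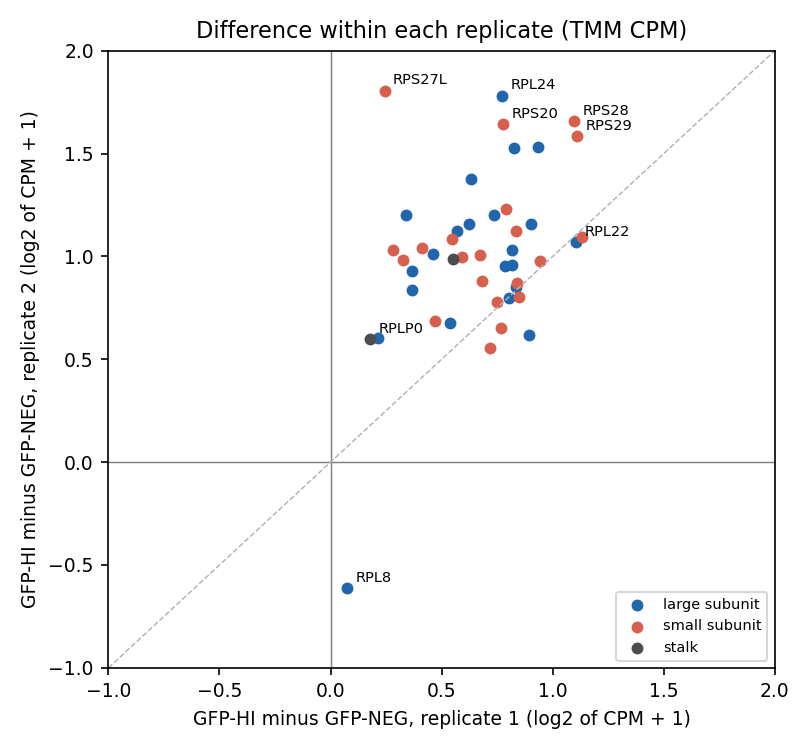
Difference between GFP-HI and GFP-NEG within replicate 1 (horizontal axis) and within replicate 2 (vertical axis), in log2 of CPM + 1 with TMM factors, for 45 of the 46 well-measured ribosomal protein genes, coloured by subunit. All points but RPL8 lie in the quadrant where both differences are positive, and most lie above the dashed line of equal differences.

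The largest fold changes were in RPS28 and RPS29, small proteins of the small subunit. RPS28 was at 949 and 1404 CPM in GFP-HI and at 443 and 444 CPM in GFP-NEG. Both GFP-HI libraries lay above both GFP-NEG libraries, also on unscaled CPM (865 and 1147 against 453 and 575). Its log2 fold change of 1.41 ± 0.82 (SE) had a 95% interval from -0.21 to 3.02. The adjusted p was 0.18 in edgeR and 0.021 in DESeq2, and 0.018 in the authors' deposited table.

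RPS29 was at 536 and 877 CPM in GFP-HI and at 248 and 292 CPM in GFP-NEG, again without overlap on either scale. The fitted difference was 1.39 ± 0.74 (SE) in log2, for which edgeR gave an adjusted p of 0.14 and DESeq2 0.028. The gene encodes a zinc-binding protein of the small-subunit head. The authors' deposited table lists RPS29 at 1.38 in log2, adjusted p 0.025.

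RPL24 encodes a large-subunit protein that joins the particle late and reaches across to the small subunit. It was at 338 and 649 CPM in GFP-HI and at 197 and 188 CPM in GFP-NEG. The log2 fold change of 1.36 ± 0.69 (SE) came closest to the threshold (edgeR adjusted p 0.117) and passed it in DESeq2 (adjusted p of 0.039). The log2 difference within replicates was 0.77 in replicate 1 and 1.78 in replicate 2, so the size differed between the pairs while the direction did not.

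RPL34, RPS20 and RPL7 followed, all with groups apart on both scales. RPL34, a protein of the large subunit, was at 436 and 827 CPM in GFP-HI and at 228 and 285 CPM in GFP-NEG, which is 1.30 in log2 fold change with an adjusted p of 0.16 in edgeR and 0.053 in DESeq2. RPS20, a protein of the small-subunit head, was at 1822 and 3628 CPM in GFP-HI and at 1063 and 1161 CPM in GFP-NEG. The log2 fold change of 1.29 carried the largest SE of the 46 genes (1.00, adjusted p of 0.33 in edgeR), which reflects little of its own scatter. The within-replicate log2 differences of RPS20 were 0.78 and 1.64. RPL7 was at 972 and 1847 CPM against 547 and 641 CPM, which is 1.25 in log2 fold change (adjusted p of 0.27 in edgeR). RPL22, an RNA-binding protein that ribosomes can do without and that is known from T-cell development, was at 224 and 306 CPM against 104 and 145 CPM. Its log2 fold change was 1.09 (adjusted p of 0.17 in edgeR). The log2 difference of RPL22 was even between replicates with TMM scaling, 1.11 and 1.07. On unscaled CPM it was not, with GFP-HI at 1.93 times (replicate 1) and 1.33 times (replicate 2) GFP-NEG.

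RPS27L stood out by its replicates. It encodes a paralogue of RPS27 that p53 induces, and it was at 126 and 280 CPM in GFP-HI and at 106 and 79.4 CPM in GFP-NEG. The groups did not overlap, but the log2 difference was 0.24 within replicate 1 and 1.81 within replicate 2, the widest disagreement of all members. In the fit the difference was 1.13 ± 0.59 (SE) in log2 (adjusted p of 0.13, edgeR).

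RPL8 was the 1 well-measured member with a negative log2 fold change. The protein lies close to the catalytic centre of the large subunit. The gene was at 703 and 670 CPM in GFP-HI and at 668 and 1026 CPM in GFP-NEG, so the groups overlapped with TMM scaling. On unscaled CPM it was lower in GFP-HI, with 641 and 547 against 684 and 1328. That fold change was -0.30 ± 0.80 (SE), its 95% interval ran from -1.87 to 1.26 (edgeR adjusted p 0.81). Leaving out GFP-NEG replicate 2 moved it to 0.0024. The log2 difference was 0.07 in replicate 1 and -0.61 in replicate 2, so no direction can be given for RPL8.

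The stalk of the large subunit, which recruits elongation factors, is built on RPLP0. RPLP0 was at 1114 and 2056 CPM in GFP-HI and at 985 and 1359 CPM in GFP-NEG, which is 0.44 ± 0.91 (SE) in log2 fold change (edgeR adjusted p 0.75). The groups overlapped, and with library size alone its log2 fold change was -0.05. RPLP2, the acidic protein bound to it, was at 345 and 658 CPM against 235 and 332 CPM, which is 0.82 in log2 fold change (adjusted p of 0.38, edgeR).

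Other genes with a known part in ribosome function lay near the common value. RPL5 and RPL11 enter the ribosome together with a small ribosomal RNA, and the same complex binds MDM2 when assembly fails. RPL5 was at 851 and 1862 CPM in GFP-HI and at 549 and 716 CPM in GFP-NEG (log2 fold change 1.10, adjusted p of 0.33, edgeR). RPL11 was at 476 and 791 CPM against 269.7 and 386 CPM (log2 fold change 0.95, adjusted p of 0.33, edgeR). RPS6, the small-subunit protein phosphorylated by the S6 kinases, was at 545 and 1292 CPM against 434 and 653 CPM, with overlapping groups and a log2 fold change of 0.76 (edgeR adjusted p 0.49). RPL3 helps to shape the catalytic centre, and RPL10 joins late, in the cytoplasm. RPL3 was at 841 and 1496 CPM against 652 and 838 CPM (log2 fold change 0.65), and RPL10 at 1173 and 2074 CPM against 627 and 927 CPM (log2 fold change 1.06).

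Among the members with the most counts were also RPS25 and RPL23. RPS25, which some viral internal ribosome entry sites require, was at 1287 and 2508 CPM in GFP-HI, against 744 and 1068 CPM in GFP-NEG. RPL23, a large-subunit protein that can also bind MDM2, was at 1105 and 1896 CPM against 856 and 994 CPM. The groups did not overlap for either gene with TMM scaling and overlapped for both on unscaled CPM. Their log2 fold changes were 1.07 and 0.70, with adjusted p-values of 0.39 and 0.58 (edgeR). RPL26, a large-subunit protein, was at 370.1 and 551 CPM against 207 and 305 CPM (log2 fold change 0.85).

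Members with a tissue-restricted paralogue role were nearly silent. RPL10L, the testis paralogue of RPL10, had 0 counts in all 4 libraries, which at 3 counts per library allows up to 0.122 unscaled CPM in the deepest and 0.477 in the shallowest library. RPL3L, the muscle paralogue of RPL3, had 4 and 23 counts in the GFP-HI libraries, against 2 and 20 in GFP-NEG. Replicate 2 held most of the RPL3L counts in both groups, and its log2 fold change was -0.95 ± 1.199 (SE, adjusted p of 0.58, edgeR). That value was 0.03 without GFP-HI replicate 1 and 1.03 without GFP-NEG replicate 2, so no direction can be given for it.

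The make-up of the ribosomal protein transcripts was described next, by giving each gene as a percentage of the counts of all 48, which removes the common shift between libraries. This view was chosen after the values had been seen. For 22 of the 46 well-measured genes the GFP-HI share was within 1.2-fold of the GFP-NEG share in both replicates. Pearson's r of the log2 shares across these 46 genes was 0.967 between the GFP-HI replicates, 0.967 between the GFP-NEG replicates and 0.909 to 0.959 between groups; the points share libraries, and the genes differ in length and level. The share was wholly higher in GFP-HI for 14 of the 46 genes and wholly lower for 8. On the same scale 5.74% of all tested genes were wholly higher and 55.5% wholly lower, but the members' shares add up to the whole, so both directions had to occur among them and the counts are a description only.

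RPL8 had the largest shift in make-up. It was 2.35% and 1.25% of ribosomal protein counts in GFP-HI, against 3.45% and 3.83% for GFP-NEG, which is 0.68 times and 0.33 times the GFP-NEG share in replicates 1 and 2. RPLP0 was at 3.72% and 3.83% in GFP-HI and at 5.09% and 5.07% in GFP-NEG, and RPL15, a large-subunit protein, at 1.374% and 1.47% against 1.84% and 1.93%. These RPLP0 and RPL15 values differed little between replicates of a group. In the other direction, RPS29 was at 1.79% and 1.63% against 1.28% and 1.09%, RPS28 at 3.17% and 2.61% against 2.29% and 1.66%, and RPL34 at 1.46% and 1.54% against 1.18% and 1.06%. With all genes scaled to the ribosomal protein total, 0 of the 47 members passed the threshold in edgeR in either direction (0 at an unadjusted p under 0.05), where 0.981% of all genes were called higher and 32.8% lower. The adjusted p was 0.40 for RPL8, 0.78 for RPLP0 and 0.71 for RPS29 in that fit.

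**Figure D4:**
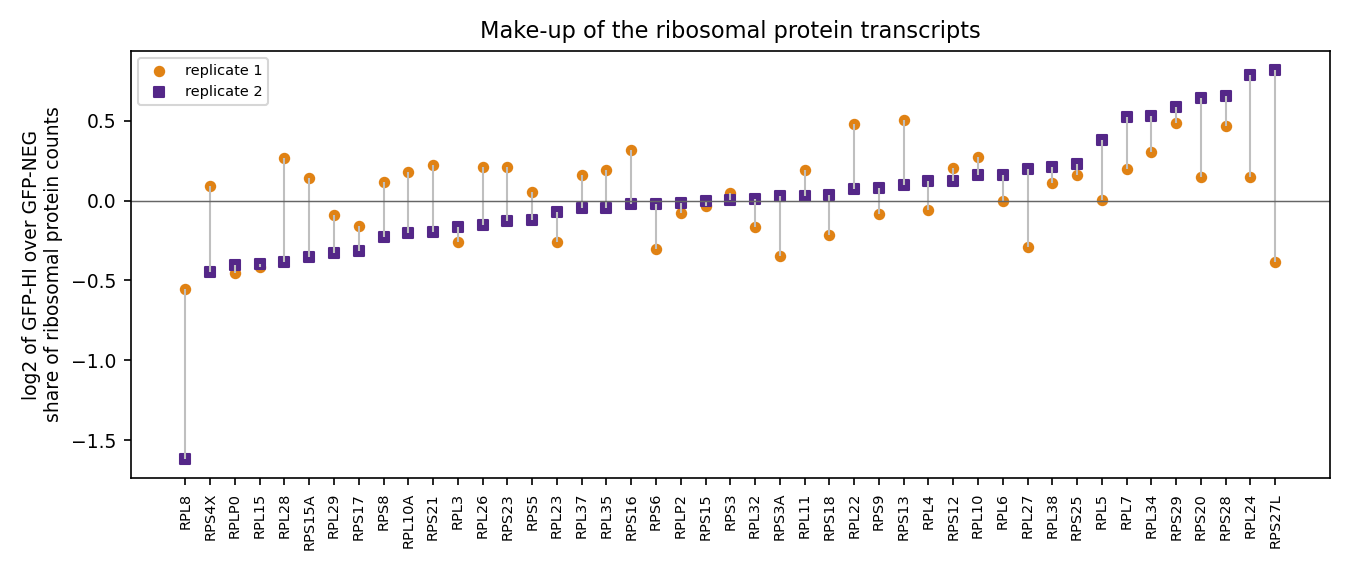
Ratio of each gene's share of ribosomal protein counts in GFP-HI to its share in GFP-NEG, in log2, for replicate 1 (circles) and replicate 2 (squares), with 45 of the 46 well-measured genes sorted by replicate 2. RPL8 is the lowest gene in both replicates; RPLP0 and RPL15 lie below 0, and RPS28 and RPS29 above 0, in both, while RPS27L changes side between the replicates.

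The 8 ribosomal protein genes filed under an identifier were RPL7A, RPL14, RPL23A, RPLP1, RPS2, RPS7, RPS24 and RPS27A. All 8 had positive log2 fold changes with TMM scaling, with a median of 0.93, where 8713 of the 19682 tested genes were positive. With library size alone 7 of the 8 were positive, and RPS2 was at -0.13. Of the 8, 0 passed the threshold in edgeR (0 at an unadjusted p under 0.05, 1 in DESeq2). RPS27A, which is made as a fusion to ubiquitin, was at 1887 and 3599.9 CPM in GFP-HI and at 927 and 1144 CPM in GFP-NEG, which is 1.41 in log2 fold change (adjusted p of 0.28 in edgeR and 0.032 in DESeq2). RPLP1, the partner of RPLP2 in the stalk, was at 2127 and 4065 CPM against 1419 and 1589 CPM (log2 fold change 1.04). RPS2, which lines the mRNA entry channel, was at 1208 and 952 CPM against 806 and 938 CPM. Within replicates its log2 differences were 0.58 and 0.02, and like RPL8 it was lower in replicate 2 than in replicate 1 of GFP-HI. On unscaled CPM, RPS2 in GFP-HI was at 1.33 times (replicate 1) and 0.64 times (replicate 2) GFP-NEG. With these 8 added, the share of all counts was 3.55% and 5.68% in the GFP-HI libraries, against 2.54% and 4.37% in GFP-NEG.

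Ribosomal proteins outside the name rule ranged in log2 fold change from 0.02 to 1.36. Beside the calls in this and the following lists, 8.35% of all tested genes were higher and 27.6% lower in edgeR. Of 6 tested genes, 1 passed the threshold: RPL26L1, a paralogue of RPL26, was at 46.8 and 117 CPM in GFP-HI and at 33.7 and 30.04 CPM in GFP-NEG (log2 fold change 1.36, adjusted p of 0.030, edgeR). The call was lost with DESeq2 (adjusted p of 0.070), with the replicate number as a block (adjusted p of 0.073), and with library size alone (adjusted p of 0.18). It was also lost with upper-quartile scaling (0.10), among genes of at least 10 CPM (0.24), with GFP-HI thinned to the depth of GFP-NEG (0.10) and scaled to the ribosomal protein total (0.80). The same held without GFP-HI replicate 2, GFP-NEG replicate 1 or GFP-NEG replicate 2 (adjusted p of 0.49, 0.13 and 0.40). RPSA, the small-subunit protein also known as the laminin receptor, was at 1038 and 2269 CPM against 837 and 1255 CPM (log2 fold change 0.66, adjusted p of 0.61, edgeR). RACK1, a scaffold bound to the small subunit, was at 532 and 833 CPM against 455 and 795 CPM, which is 0.13 in log2 fold change and turned to -0.37 with library size alone (adjusted p of 0.92 and 0.76, edgeR). RPL7L1, a paralogue of RPL7, had a log2 fold change of 0.95, and RPL36AL, a paralogue of RPL36A, of 0.22 (-0.26 with library size alone). RPL22L1, the paralogue of RPL22, was at 24.6 and 57.7 CPM against 36.5 and 44.7 CPM, with a log2 fold change of 0.02 that was -0.46 with library size alone. RPL22 itself had groups apart and RPL22L1 did not, but the difference between them was not tested.

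Medians of the translation machinery around the ribosome were positive with TMM scaling, as was that of the other genes in the members' CPM range (0.52). The lists are not separate, since several factors, such as EEF2, are also among the genes with oligopyrimidine mRNAs. For the 15 tested other genes with oligopyrimidine mRNAs the median log2 fold change was 0.61 and 0 passed the threshold (0 at an unadjusted p under 0.05 and 0 in DESeq2). Among 33 tested initiation factors the median was 0.51, and 1 was higher: EIF2B4, a subunit of the exchange factor that recharges the initiator complex, at 79.7 and 118 CPM against 42.5 and 32.6 CPM (log2 fold change 1.40, adjusted p of 0.027, edgeR). Among 9 tested elongation and termination factors the median was 0.52, and 1 was higher: EIF5A2, a paralogue of EIF5A, with a log2 fold change of 1.47 (edgeR adjusted p 0.035, and 0.058 in DESeq2). EIF2B4 and EIF5A2 both lost the call with library size alone (adjusted p of 0.14 and 0.18), without GFP-HI replicate 2 (0.18 and 0.15) and without GFP-NEG replicate 2 (0.45 and 0.53). EIF2B4 also lost it without GFP-NEG replicate 1 (0.096) and EIF5A2 without GFP-HI replicate 1 (0.071). Both lost it with upper-quartile scaling (0.087 and 0.12), among genes of at least 10 CPM (0.17 and 0.19) and scaled to the ribosomal protein total (0.71 and 0.69), and EIF5A2 at 1 CPM in 2 libraries (0.053) and with GFP-HI thinned (0.10). With library size alone, these 3 lists had medians of 0.13, 0.08 and 0.09, beside 0.09 for the other genes in the members' CPM range.

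Factors that build ribosomes had lower medians. The 41 tested ribosome biogenesis factors had a median log2 fold change of 0.06, and -0.40 with library size alone, and 0 passed the threshold (0 at an unadjusted p under 0.05 and 0 in DESeq2). The 15 genes of the RNA polymerase I machinery, which transcribes ribosomal RNA, had a median of 0.32 (-0.10 with library size alone). Of these, TAF1B (log2 fold change 1.63, adjusted p of 0.0092, edgeR) and POLR1H (29.2 and 58.3 CPM against 17.7 and 16.2 CPM, adjusted p of 0.032, edgeR) were higher in GFP-HI; they encode a selectivity factor and a subunit of the polymerase. TAF1B and POLR1H lost the call with library size alone (adjusted p of 0.067 and 0.20), without GFP-HI replicate 2 (0.12 and 0.33) and without GFP-NEG replicate 2 (0.43 and 0.38). POLR1H also lost it in DESeq2 (adjusted p of 0.066) and without GFP-NEG replicate 1 (0.12). Both lost it among genes of at least 10 CPM (0.12 and 0.23) and scaled to the ribosomal protein total (0.59 and 0.77), and POLR1H with upper-quartile scaling (0.12) and with GFP-HI thinned (0.091). The 6 tested chaperones and carriers of ribosomal proteins had a median of 0.31 and 0 calls in edgeR (1 at an unadjusted p under 0.05, 0 in DESeq2). Differences between these lists and the ribosomal protein genes were not tested.

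Among 16 tested genes of MYC and mTORC1 control, 2 were higher and 1 was lower. MYC fell: it was at 28.6 and 32.8 CPM in GFP-HI and at 69.4 and 141 CPM in GFP-NEG, which is -1.78 in log2 fold change with an adjusted p of 0.0039 (edgeR). The MYC call held under all scalings, filters, the block and DESeq2, and was lost when GFP-HI replicate 1, GFP-HI replicate 2 or GFP-NEG replicate 2 was left out (adjusted p of 0.12, 0.097 and 0.33). EIF4EBP2, a repressor of cap-dependent initiation, was at 142 and 204 CPM against 64.9 and 40.5 CPM (log2 fold change 1.71, adjusted p of 0.011, edgeR). TSC2, an inhibitor of mTORC1, was at 267 and 160 CPM against 87.1 and 62.5 CPM (log2 fold change 1.51, adjusted p of 0.033, edgeR), and lost the call with library size alone (adjusted p of 0.11) and when any 1 library was left out (adjusted p from 0.062 to 0.48). TSC2 also lost it with upper-quartile scaling (0.081), among genes of at least 10 CPM (0.16), with GFP-HI thinned (0.060) and scaled to the ribosomal protein total (0.52). EIF4EBP2 lost it without GFP-HI replicate 2 (0.11), without GFP-NEG replicate 2 (0.39), among genes of at least 10 CPM (0.088) and scaled to the ribosomal protein total (0.51).

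The ribosomal proteins of mitochondria, a separate set encoded in the nucleus, had a median log2 fold change of 0.69 over 68 tested genes (0.24 with library size alone). Of the 68, 10 were higher and 1 lower in edgeR, 6 were higher and 1 lower with the replicate block, and 6 were higher and 0 lower in DESeq2. Of all genes, edgeR called 8.35% higher and 27.6% lower, and DESeq2 6.91% and 26.7%. With the block, 1707 of 19682 were higher and 4793 lower. The share of the 68 called higher was thus near that of all genes with the block and in DESeq2. The largest increases were in MRPL16 (log2 fold change 1.67, adjusted p of 0.0067), MRPL33 (1.61, 0.0082), MRPL27 (1.59, 0.012) and MRPL17 (1.57, 0.021), all by edgeR. MRPL16 was at 29.3 and 73.7 CPM in GFP-HI and at 18.6 and 13.8 CPM in GFP-NEG. The lower gene, MRPS12, was named after its value was seen and had a log2 fold change of -1.28 (edgeR adjusted p 0.044, and 0.052 in DESeq2). The calls of MRPL16, MRPL33, MRPL27 and MRPL17 were lost with library size alone (adjusted p of 0.063, 0.064, 0.079 and 0.10) and without GFP-HI replicate 2 (log2 fold changes of 0.93, 0.89, 0.90 and 1.03) and without GFP-NEG replicate 2 (adjusted p of 0.29, 0.38, 0.30 and 0.36). MRPL27 and MRPL17 lost it also without GFP-NEG replicate 1 (adjusted p of 0.082 and 0.10). All 4 lost it among genes of at least 10 CPM (adjusted p from 0.14 to 0.15) and scaled to the ribosomal protein total (0.61 to 0.65), and MRPL17 with upper-quartile scaling (0.060) and with GFP-HI thinned (0.052). The median of the list was 0.18 within replicate 1 and 1.04 within replicate 2.

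**Figure D5:**
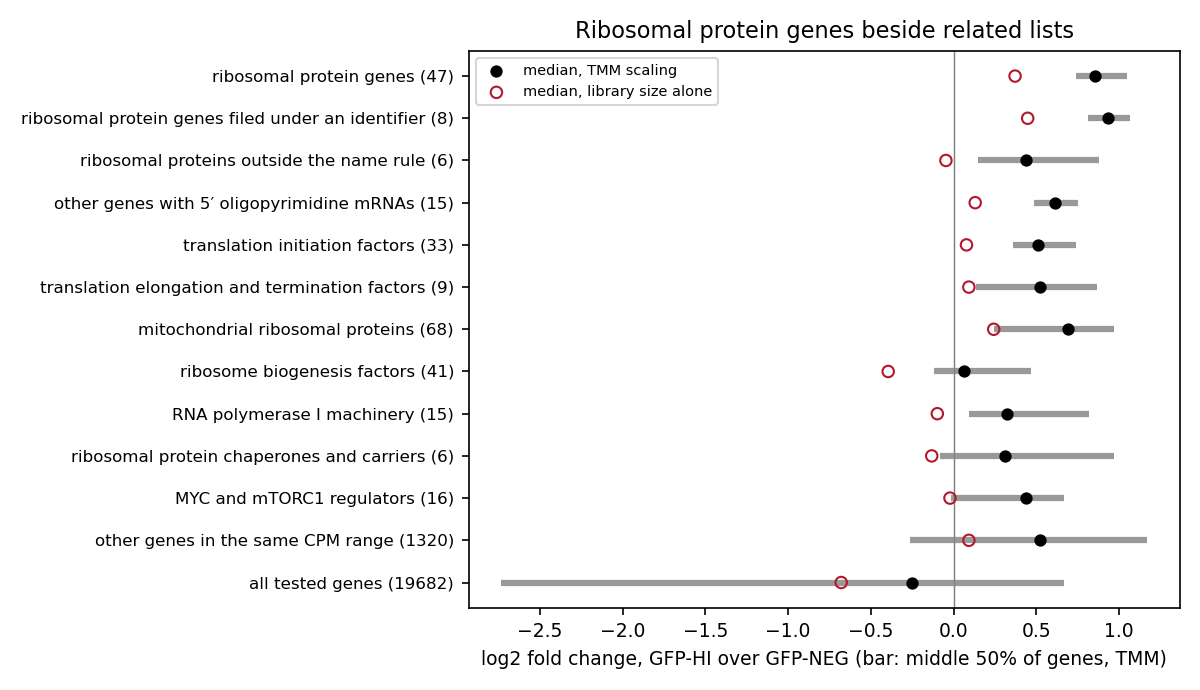
Median log2 fold change (black, TMM scaling) with the middle range of genes (grey bar) for the ribosomal protein genes, the related lists, the other genes in the same CPM range and all tested genes, with the number of tested genes in brackets; open red circles are medians with library size alone. The 47 ribosomal protein genes have a median of 0.85 and a narrow bar, and every median lies further left with library size alone.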

How the data were processed

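RNA sequencing libraries of sorted pig lung cells (Illumina Nextera XT, per the labels' protocols) were analysed from the deposited whole-number counts per gene. featureCounts, Subread 1.5.2 and DESeq2 1.37.6 are named in the submitters' processing notes; the aligner, strand setting, treatment of reads with several matches and genome build are not given in the sources used here. Ribosomal protein genes have many near-identical processed copies, so counts of any member are uncertain where reads could be shared. The deposited comparison table gives log2 fold changes, a test statistic (a score), p-values and adjusted p-values by the authors; its 4 count columns equal the single tables, and 4 further columns of values per sample were not used. Identifiers were renamed with the gene name table where it had an unused symbol (834). No sequence tables were used here.

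Counts were tested with edgeR 4.0.16 (R 4.3.3; filterByExpr, 19682 genes with 99.8% of counts, TMM, glmQLFit and glmQLFTest, group as the only term, Benjamini-Hochberg adjustment). The prior degrees of freedom were infinite, so a gene's own scatter carried little weight. Within-replicate log2 differences use CPM + 1, and intervals are the estimate ± 1.96 standard errors. DESeq2 1.42.0 was an alternative. Headings of the deposited table name 2 pigs for the replicate numbers. Deviations of same-numbered libraries correlated with r = 0.190 across genes and -0.281 across the 46 well-measured members. Such a correlation takes out any shift common to the genes compared. It therefore does not show the rise from replicate 1 to replicate 2 that most members had in both groups. The procedure was tested on simulated data drawn without a shift between replicates. That test cannot show how the procedure behaves with the shift between replicates seen here.

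Members, gene lists, tests and alternatives were chosen with earlier results of these data known. Named members are the 6 with most counts, the 3 highest and 3 lowest fold changes, the 3 with the largest difference between replicates, paralogue pairs, stalk genes, RPL5, RPL11, RPS6 and RPS19 where measured; RPL34, RPL15, RPS27A, RPS2 and other genes outside this rule were named after their values were seen. The values of 1 further gene are not reported here, although it is included in every count, median and fit. From each related list up to 4 called genes of at least 10 CPM were named.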

Additional observations from a re-analysis of the deposited data

How the results depend on the processing

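No ribosomal protein gene passed the threshold in edgeR under any of the 14 edgeR alternatives, block included; DESeq2 called 3 higher. Their median log2 fold change was 0.50 with upper-quartile scaling, 0.37 with library size alone, 0.51 among genes of at least 10 CPM and 0.49 to 1.38 leaving out single libraries. It was positive in all 15 refits, but scaling to the ribosomal protein total sets it near 0 by construction (0.024), so that refit cannot show a direction. Over all genes, 1643 were higher, against 1083 (upper quartile), 888 (library size), 380 (at least 10 CPM), 193 (ribosomal protein total) and 216 to 1635 leaving out libraries; 5433 were lower, against 1001 (at least 10 CPM), 3616 (GFP-HI thinned) and 1575 to 4999 leaving out libraries. The replicate block gave 1707 higher and 4793 lower genes and a members' median of 0.83, and among the genes named here it changed the call of RPL26L1 alone. Fits that leave out a library assume that the lone library of a group varies like the others.

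Scaling to the ribosomal protein total places the members around 0 by construction. Of the 47 members, 24 were positive when scaled to the ribosomal protein total and 43 with library size alone, against 45 in the main fit. RPL15 was at -0.41 and -0.032 in these fits, and RPS2, outside the 48, at -0.40 and -0.13. Signs were followed through all settings only for the genes named by rule, so the lists below do not cover every member. Among the genes followed, signs that reversed were of uncalled genes. Scaled to the ribosomal protein total they were RPLP0 (-0.43), RPL23 (-0.17), RPL3 (-0.22), RPLP2 (-0.044), RPS6 (-0.15), RPSA (-0.23), RPL22L1 (-0.91), RPL36AL (-0.64) and RACK1 (-0.68). With library size alone they were RPLP0 (-0.047), RPL22L1 (-0.46), RPL36AL (-0.26) and RACK1 (-0.37), with upper-quartile scaling RPL22L1 (-0.33), RPL36AL (-0.13) and RACK1 (-0.24), and among genes of at least 10 CPM RPL22L1 (-0.33), RPL36AL (-0.13) and RACK1 (-0.23). With GFP-HI thinned, RPL22L1 was at -0.17 and RACK1 at -0.026. RPL22L1 was also at -0.027 with RLE scaling and DESeq2, -0.025 with at least 1 CPM in 2 libraries and -0.10 with the block. Leaving out single libraries, RPL22L1 ran from -0.63 to 0.66, RPL36AL from -0.12 to 0.71, RACK1 from -0.17 to 0.58, RPL8 from -0.53 to 0.0024 and RPL3L from -2.61 to 1.03. The cause was not tested. The scaling to the ribosomal protein total and the addition of the 8 genes were chosen after the data were seen. The smallest count of a well-measured member was 474.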
